A study of Danio rerio with 21 samples.

Results

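Solute carrier genes were read across sorted cells of zebrafish embryos. The 43 genes described here are those whose symbol in any of 3 deposited tables began with slc and a family number, among 3064 genes listed in all. Of 54 genes with such a symbol, the 10 mitochondrial slc25a carriers and slc4a1a, the anion exchanger of erythrocytes, were left out. The 43 members came from 25 families. They were grouped by the substrate class of the family number, with exceptions for single genes, so what a member itself carries can differ. The classes held 13 for amino acids and peptides, 7 for metals and heme, 4 for inorganic ions, 4 for sugars, 3 for monocarboxylates, 2 each for lipids and choline, vesicular and neurotransmitter substrates, nucleosides, nucleotide sugars, and organic ions and urea, and 1 each for vitamins and sialic acid.

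All embryos carried both transgenes TgBAC(runx1P2:Citrine) and Tg(kdrl:mCherry) and were 28-30 hours old. Citrine reported the second promoter of runx1 from a bacterial artificial chromosome, and mCherry reported kdrl, a VEGF receptor of endothelial cells. Non-injected embryos gave haemogenic endothelium (HE, mCherry-positive with high Citrine, sorted as Wt-DP-R1hi), the endothelium that releases the first blood stem cells, and the aortic roof endothelium beside it (ARE, mCherry-positive with low Citrine, Wt-DP-R1lo). Embryos injected with a morpholino against runx1 gave MO-DP-R1hi cells and MO-DN cells, which had neither colour and were labelled non-endothelial. Their references were Wt-DP-R1hi and Wt-DN from non-injected embryos of the same batches, each batch having been split between the treatments. Injection itself and the loss of runx1 therefore cannot be told apart. These 5 groups had 3 libraries each, with at least 3000 cells a sample, of 21 samples in 7 groups. The remaining 2 groups and the values of runx1 were not analysed here. The methods describe independent experiments on pooled embryos, but the replicate numbers are not matched to those experiments in the sources used here.

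Solute carriers are membrane proteins that move nutrients, ions and metabolites into, out of and within cells. Family 7 light chains reach the cell surface bound to a family 3 glycoprotein, the 4F2 heavy chain. Ferroportin, the product of slc40a1, exports iron from cells that store or recycle it, macrophages among them. In zebrafish, slc7a7 and slc37a2 are known from macrophages and microglia. The roles given below are those of the mammalian proteins of the same name unless zebrafish is named. Some of these genes act in lysosomes or the endoplasmic reticulum and not at the cell surface.

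The tables list only genes that the authors had already called, so a member was in a table because it differed there. Of the 43 members, 37 were listed for HE against ARE among 2732 genes, 16 for MO against Wt in DP-R1hi among 676, and 2 for MO against Wt in DN among 176. Effective library sizes were 9.72 to 22.6 M reads, and 254 of the 330 values of members rested on 100 or more reads, 7 on fewer than 10. Values are CPM, read counts scaled to library size, and limma was run on log2(CPM + 1). Fold differences of low genes are understated on that scale. A gene was called where its adjusted p was under 0.05. Reads of overlapping or antisense genes cannot be told apart in these values, since strand was not stated.

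The sorted cells differed in more than Citrine. kdrl itself was at 11.2, 7.69 and 26.1 CPM in HE, against 78.7, 102 and 194 CPM in ARE. Of 11 endothelial markers, 9 were listed and all 9 were lower in HE, with a summed level of 60.4 to 160 CPM in HE and 1171 to 2247 CPM in ARE. All 6 haemogenic markers were higher in HE, at 1775 to 2096 CPM in HE and 594 to 784 CPM in ARE. Markers of other cells differed too. The 3 listed of 10 primitive erythroid markers (blf, znfl2a and gata1a) were higher in HE, summing to 2180 to 2517 CPM in HE and 464 to 656 CPM in ARE. The listed markers of macrophages, epidermis, neural crest and sclerotome, muscle, and pronephros, gut and liver were all called lower in HE. Of 8 listed neural markers, 6 were called lower and 2 were not called. The collagen gene col1a2, of the neural crest and sclerotome list, averaged 6.19 CPM in HE and 450 CPM in ARE. ctsla, of the pronephros, gut and liver list, averaged 48.5 CPM in HE and 1348 CPM in ARE. The 5 listed of 9 macrophage and myeloid markers summed to 57.4 to 88.3 CPM in HE and 885 to 1337 CPM in ARE. Not among those 5 were mpx and coro1a, which were not listed for HE against ARE. In the MO comparison below, the same 3 HE libraries held mpx at 4376, 5073 and 3466 CPM and coro1a at 2682, 2889 and 2477 CPM. The sum of the 5 is therefore not all myeloid RNA in HE. Nor is the sum of blf, znfl2a and gata1a all erythroid RNA. In the MO comparison the same HE libraries held 6 listed erythroid markers, globins among them, at a sum of 35278 to 46133 CPM. The globin genes were not listed for HE against ARE and have no value in ARE. The 9 listed of 12 epidermal markers summed to 46.6 to 84.3 CPM in HE and 371 to 2594 CPM in ARE. None of these listed markers was at 0 in all libraries. In bulk RNA, fewer cells of a type and less RNA per cell cannot be told apart.

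The comparison of HE with ARE asked what sets the endothelium that makes blood apart from its neighbour. HE held less mRNA than ARE for ferroportin, for most listed amino acid carriers, for 4 zinc carriers and for all 4 listed sugar carriers. HE held more for a smaller set that included carriers of nucleosides (slc29a1a), vitamins (slc5a6b), taurine (slc6a6b), urea (slc14a2) and fatty acids (slc27a4). Of the 37 members, 10 were called higher and 23 lower, and 4 were not called (slc20a2, slc1a2b, slc17a5 and slc30a9). Over all listed genes 94.5% were called, 38% higher and 56.5% lower, so a call by itself is near the background. With the replicate number as a block, slc20a2, slc17a5 and slc30a9 were called too, which made 36 members. That block called 2686 of the 2732 listed genes. The median log2 difference of the members was -1.48, against -1.003 over all listed genes. The groups did not overlap for 35 of 37 members, and for 98.1% of all listed genes. Rescaling each library to the median ratio of the listed genes raised every log2 difference by 0.86 before the pseudocount, left 11 members called higher and 16 lower, and put the members' median at -0.80, against -0.21 for all listed genes. The calls lost were those of slc12a2, slc15a4, slc39a13, slc2a8, slc2a12, slc2a13b and slc9a7, slc30a9 was gained, and slc9a7 and the uncalled slc17a5 changed sign. The listed genes had been chosen for their change, so this is no check of the normalisation. Without HE replicate 2, 5 members were called higher and 18 lower.

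**Figure D1:**
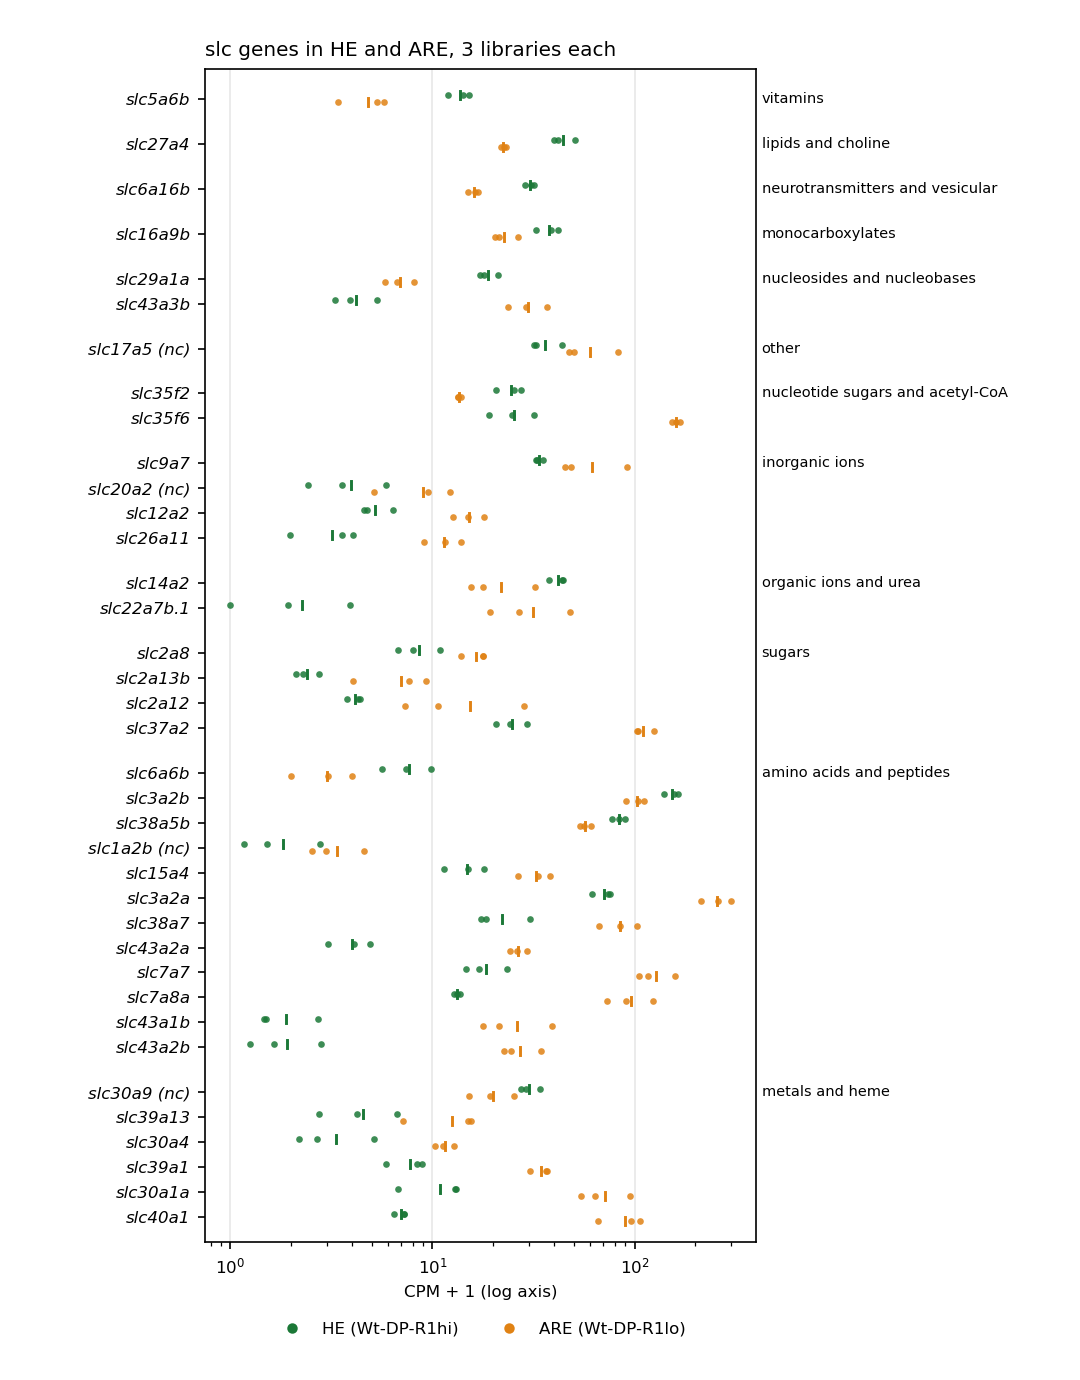
CPM + 1 on a log axis of the 37 solute carrier genes listed for HE against ARE, with 1 point for each of 3 libraries of HE (green) and ARE (orange), a bar at each group mean, genes grouped by substrate class, and (nc) for the 4 genes not called. The 3 HE points of slc40a1 lie at 5.42 to 6.27 CPM and its ARE points at 65.1 to 106 CPM, while HE lies above ARE for slc5a6b, slc27a4 and slc29a1a.

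Among the 12 listed carriers of amino acids and peptides, 8 were called lower and 3 higher in HE. Over all listed genes 56.5% were called lower and 38% higher. The median log2 difference of the class was -1.91, against -1.003 over all listed genes. The largest falls were in family 43, whose first members are facilitators of large neutral amino acids. slc43a2b was at 0.247, 0.641 and 1.81 CPM in HE, against 23.4, 33.3 and 21.7 CPM in ARE. HE was barely above 0, with 4, 11 and 35 reads, and did not overlap ARE (log2 difference -3.90 ± 0.36 SE, adjusted p = 2.5e-05). Its copy slc43a2a was at 2.04, 3.91 and 3.11 CPM in HE, against 25.1, 28.5 and 23.2 CPM in ARE, and was lower in HE in the same way (log2 difference -2.75 ± 0.28 SE, adjusted p = 4.2e-05). slc43a1b, a relative with the same substrates, was at 0.494, 0.466 and 1.71 CPM in HE, against 20.4, 16.8 and 38.2 CPM in ARE. HE held 8, 8 and 33 reads. ARE replicate 3 was the highest, and all 3 exceeded every HE library (log2 difference -3.77 ± 0.38 SE, adjusted p = 4.7e-05).

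The 2 listed light chains of family 7 were both lower in HE. slc7a7, which exchanges cationic for neutral amino acids, was at 16.1, 13.7 and 22.5 CPM in HE, against 115, 158 and 104 CPM in ARE (log2 difference -2.79 ± 0.23 SE, adjusted p = 1.3e-05). slc7a8a, a light chain for neutral amino acids, was at 11.7, 12.3 and 12.7 CPM in HE, against 72.05, 123 and 89.9 CPM in ARE (log2 difference -2.82 ± 0.22 SE, adjusted p = 1.0e-05). HE replicates lay close together for slc7a8a, and neither gene overlapped between the groups, as for 98.1% of all listed genes.

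The heavy chain has 2 gene copies, and these went opposite ways. slc3a2a was at 74.5, 60.8 and 72.98 CPM in HE, against 213, 299 and 257 CPM in ARE. HE was lower without overlap (log2 difference -1.86 ± 0.16 SE, adjusted p = 1.8e-05). slc3a2b was at 139, 156 and 164 CPM in HE, against 89.9, 111 and 103 CPM in ARE. Here HE was the higher group, by less and again without overlap (log2 difference 0.59 ± 0.14 SE, adjusted p = 0.00881). slc3a2a therefore made up 34.97%, 27.99% and 30.8% of the CPM of both copies in HE, against 70.3%, 72.96% and 71.3% in ARE. These shares are ratios within a library and do not depend on its scaling. They averaged 31.3% ± 3.51 in HE and 71.5% ± 1.36 in ARE (SD, n = 3 each). An exact two-sided permutation test gave p = 0.1, the smallest that 3 against 3 allows. Neither copy overlapped between the groups and they went opposite ways, so that outcome was fixed beforehand. The test therefore adds no support. The 2 copies summed to 222 ± 12.7 CPM in HE and 357 ± 53.6 CPM in ARE. CPM is not per length, so the share compares libraries and not the copies with each other. Reads that fit both copies could have been split between them.

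**Figure D2:**
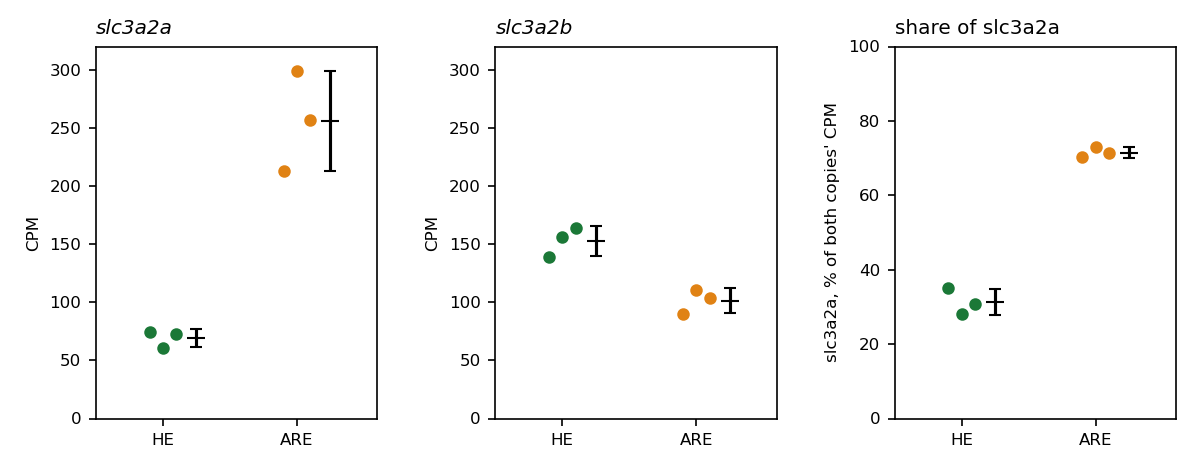
CPM of slc3a2a and slc3a2b, and the percent of slc3a2a in the CPM of both, in 3 libraries each of HE (green) and ARE (orange), with black bars for mean ± SD. HE lies below ARE for slc3a2a, above it for slc3a2b, and at 27.99% to 34.97% against 70.3% to 72.96% for the share.

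The other amino acid genes split between the directions. slc38a7, a glutamine exporter of lysosomes, averaged 21.1 ± 7.14 CPM in HE and 83.6 ± 18.1 CPM in ARE (log2 difference -1.96 ± 0.25 SE, adjusted p = 2.0e-04), and slc15a4, a lysosomal carrier of histidine and peptides, averaged 13.8 ± 3.27 CPM in HE and 31.6 ± 5.95 CPM in ARE (log2 difference -1.15 ± 0.25 SE, adjusted p = 0.00517). The taurine carrier slc6a6b was at 6.43, 8.86 and 4.66 CPM in HE, against 2.04, 3.01 and 0.987 CPM in ARE. It was low in both groups and higher in HE (log2 difference 1.37 ± 0.37 SE, adjusted p = 0.0181). This call was lost without HE replicate 1, HE replicate 2 or ARE replicate 3 (highest adjusted p = 0.0881). slc38a5b, a glutamine carrier of the plasma membrane, averaged 82.6 ± 6.08 CPM in HE and 55.8 ± 3.70 CPM in ARE (log2 difference 0.56 ± 0.15 SE, adjusted p = 0.0165), a call lost without HE replicate 2 or 3 (highest adjusted p = 0.0837). The glutamate carrier slc1a2b was at 1.79, 0.175 and 0.518 CPM in HE, against 1.53, 1.99 and 3.58 CPM in ARE, and its groups overlapped (adjusted p = 0.201).

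Genes that answer to amino acid supply were given from lists of 13 for the deprivation response and 17 for sensing by mTORC1. For HE against ARE, 4 of the 13 were listed. asns, asparagine synthetase, was higher at 59.4 ± 6.20 CPM in HE and 35.8 ± 6.14 CPM in ARE. The other 3 were lower: ddit3, a stress transcription factor, by a log2 difference of -2.08, and the serine synthesis enzymes phgdh and psat1 by -1.68 and -1.48. Of the 17 sensing genes, mios was higher (log2 difference 1.06), and sesn1 (-1.27) and sesn3 (-2.14) were lower. After rescaling the log2 differences were 1.56 for asns, -1.23 for ddit3, -0.84 for phgdh and -0.66 for psat1. For the sensing genes they were 1.87 (mios), -0.45 (sesn1) and -1.30 (sesn3). The relation of these genes to the carriers was not tested.

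Among the 6 listed metal carriers, 5 were called lower in HE, against 56.5% of all listed genes. None was called higher in the fit without pairing or rescaling. The median log2 difference of the class was -2.03, against -1.003 over all listed genes. slc40a1, ferroportin, was at 6.24, 5.42 and 6.27 CPM in HE, against 65.1, 106 and 95.4 CPM in ARE. The 3 HE libraries lay within 1 CPM of each other, far under the lowest ARE library (log2 difference -3.66 ± 0.23 SE, adjusted p = 3.5e-06). slc30a1a, which exports zinc at the plasma membrane, was at 12.05, 11.9 and 5.75 CPM in HE, against 53.2, 93.96 and 63.05 CPM in ARE. HE was lower without overlap (log2 difference -2.73 ± 0.30 SE, adjusted p = 8.5e-05). slc39a1, a zinc importer, was at 7.91, 7.40 and 4.87 CPM in HE, against 29.2, 35.6 and 35.8 CPM in ARE, and was lower in HE as well (log2 difference -2.18 ± 0.25 SE, adjusted p = 9.6e-05). Carriers of zinc out of and into the cytosol thus both fell in HE.

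slc30a4, which loads zinc into vesicles, averaged 2.34 ± 1.58 CPM in HE and 10.5 ± 1.27 CPM in ARE (log2 difference -1.88 ± 0.36 SE, adjusted p = 0.00267). slc39a13, an intracellular zinc carrier, averaged 3.54 ± 1.97 CPM in HE and 11.5 ± 4.68 CPM in ARE (log2 difference -1.48 ± 0.41 SE, adjusted p = 0.0229), a call lost without HE replicate 1 or 2 or ARE replicate 1 or 3 (highest adjusted p = 0.105). slc30a9 averaged 29.2 ± 3.54 CPM in HE and 18.9 ± 5.16 CPM in ARE and was not called (adjusted p = 0.0970). It was called higher after rescaling (log2 difference 1.45) and with the replicate number as a block (adjusted p = 0.0441).

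Of 16 genes for iron and heme handling, 5 were listed beside ferroportin. The receptors for transferrin iron, tfr1a and tfr1b, and the ferritin chain fth1b were higher in HE, at log2 differences of 0.75, 1.56 and 1.62. hmox1a, which opens the heme ring, averaged 29.4 ± 15.2 CPM in HE and 849 ± 82.6 CPM in ARE, and hamp, the hormone that removes ferroportin from the membrane, averaged 0.532 ± 0.877 CPM in HE and 7.89 ± 1.59 CPM in ARE. Both were lower in HE. The macrophage marker mpeg1.1 averaged 17.7 ± 4.03 CPM in HE and 358 ± 105 CPM in ARE and csf1ra 1.91 ± 0.803 CPM in HE and 28.6 ± 7.59 CPM in ARE. The part of macrophage RNA in the falls of slc40a1, slc7a7 and slc37a2 was not tested.

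All 4 listed sugar carriers were called lower in HE, against 56.5% of all listed genes. Their median log2 difference was -1.57, against -1.003 over all listed genes. slc37a2, an exchanger of glucose 6-phosphate and phosphate, was at 23.1, 19.6 and 28.3 CPM in HE, against 103, 102 and 124 CPM in ARE. HE was lower without overlap (log2 difference -2.17 ± 0.18 SE, adjusted p = 1.7e-05). slc2a12, a glucose carrier, was at 2.78, 3.38 and 3.26 CPM in HE, against 6.33, 27.3 and 9.62 CPM in ARE. ARE replicate 2 stood above the other ARE libraries, and without it the log2 difference was -1.09, against -1.65 with it. The gene was called with all libraries (adjusted p = 0.0188) but not without HE replicate 1 or 2 (highest adjusted p = 0.0837). slc2a13b, which carries inositol, averaged 1.39 ± 0.336 CPM in HE and 6.0 ± 2.67 CPM in ARE (log2 difference -1.48 ± 0.37 SE, adjusted p = 0.0133), and slc2a8, an intracellular sugar carrier, averaged 7.56 ± 2.16 CPM in HE and 15.5 ± 2.23 CPM in ARE (log2 difference -0.96 ± 0.27 SE, adjusted p = 0.0248). Leave-one-library-out fits lost the call of slc2a13b without HE replicate 2 or ARE replicate 2 or 3, and that of slc2a8 without HE replicate 1 or 2 or ARE replicate 1 or 3 (highest adjusted p = 0.0630 and 0.104). After rescaling only slc37a2 of these 4 was still called.

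Of 4 carriers of inorganic ions, 3 were called lower in HE as deposited, against 56.5% of all listed genes. After rescaling the calls of slc12a2 and slc9a7 were lost. slc26a11, an anion carrier, was at 3.03, 2.56 and 0.984 CPM in HE, against 8.07, 12.8 and 10.5 CPM in ARE (log2 difference -1.89 ± 0.35 SE, adjusted p = 0.00226). slc12a2, the sodium, potassium and chloride cotransporter NKCC1, was at 3.58, 5.36 and 3.73 CPM in HE, against 11.7, 14.02 and 16.96 CPM in ARE (log2 difference -1.55 ± 0.28 SE, adjusted p = 0.00191), and had a log2 difference of -0.80 after rescaling (adjusted p = 0.0881). Neither gene overlapped between the groups, as for 98.1% of all listed genes. slc9a7, a sodium and proton exchanger of the Golgi, averaged 32.6 ± 1.46 CPM in HE and 60.9 ± 26.1 CPM in ARE. It was called lower as deposited (log2 difference -0.80 ± 0.26 SE, adjusted p = 0.0430), and after rescaling its log2 difference was 0.03. ARE replicate 3 was at 90.99 CPM, and without it the log2 difference was -0.48. The call was lost without that library or any 1 HE library (highest adjusted p = 0.153). The phosphate carrier slc20a2 averaged 2.97 ± 1.78 CPM in HE and 7.95 ± 3.57 CPM in ARE, and its groups overlapped (adjusted p = 0.0778).

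The 2 nucleoside and nucleobase carriers went opposite ways. slc29a1a, the equilibrative nucleoside carrier ENT1, was at 16.3, 16.96 and 20.1 CPM in HE, against 7.12, 5.72 and 4.81 CPM in ARE. HE was higher without overlap (log2 difference 1.45 ± 0.26 SE, adjusted p = 0.00156). slc43a3b, a purine nucleobase carrier of family 43, was at 2.29, 2.91 and 4.35 CPM in HE, against 35.7, 22.7 and 28.1 CPM in ARE, and was lower in HE (log2 difference -2.84 ± 0.29 SE, adjusted p = 4.7e-05). The 2 genes of family 35 did the same, though what they carry is less certain. slc35f2 was at 19.6, 26.3 and 24.4 CPM in HE, against 12.4, 12.9 and 12.3 CPM in ARE, higher in HE (log2 difference 0.84 ± 0.22 SE, adjusted p = 0.0150) but not called without HE replicate 2 or 3 (highest adjusted p = 0.0749). slc35f6 was at 30.7, 18.1 and 23.9 CPM in HE, against 152, 166 and 158 CPM in ARE, lower in HE with little spread in ARE (log2 difference -2.70 ± 0.19 SE, adjusted p = 7.0e-06).

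The organic ion and urea class held one gene each way. slc14a2, a urea carrier, was at 36.9, 42.7 and 43.2 CPM in HE, against 16.7, 31 and 14.6 CPM in ARE. HE was higher without overlap (log2 difference 1.02 ± 0.27 SE, adjusted p = 0.0170), a call lost without HE replicate 2 or ARE replicate 1 (highest adjusted p = 0.0698). slc22a7b.1, an organic anion carrier, was at 0.927, 0 and 2.90 CPM in HE, against 25.95, 18.2 and 47.01 CPM in ARE. The HE library at 0 had 0 reads, which allows up to 0.175 CPM, counting error only, and all HE libraries lay under all ARE libraries (log2 difference -3.90 ± 0.50 SE, adjusted p = 2.0e-04). Its symbol is one of several numbered slc22a7b copies, so its reads could be shared among them.

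Single members of 4 classes were higher in HE. slc5a6b, which carries biotin and pantothenate, was at 10.9, 14.1 and 13.2 CPM in HE, against 2.40, 4.33 and 4.75 CPM in ARE, the largest rise of the 37 (log2 difference 1.54 ± 0.30 SE, adjusted p = 0.00298). slc27a4, a fatty acid carrier with acyl-CoA synthetase activity, was at 39.05, 49.8 and 40.9 CPM in HE, against 20.7, 21.7 and 22.02 CPM in ARE (log2 difference 0.97 ± 0.18 SE, adjusted p = 0.00257). slc16a9b, of the monocarboxylate family, was at 31.6, 37.4 and 40.7 CPM in HE, against 20.3, 25.4 and 19.4 CPM in ARE (log2 difference 0.73 ± 0.20 SE, adjusted p = 0.0207), a call lost without HE replicate 2 or 3 or ARE replicate 1 or 3 (highest adjusted p = 0.0905). slc6a16b, of the neurotransmitter carrier family with no substrate given, was at 27.7, 29.9 and 30.7 CPM in HE, against 15.8, 15.2 and 13.9 CPM in ARE (log2 difference 0.93 ± 0.20 SE, adjusted p = 0.00481). None of these 4 overlapped between HE and ARE, as for 98.1% of all listed genes. slc17a5, the sialic acid exporter of lysosomes, averaged 35.1 ± 6.77 CPM in HE and 58.96 ± 19.5 CPM in ARE and was not called (adjusted p = 0.0602), with a log2 difference of -0.70 as deposited and 0.14 after rescaling. bsg, the chaperone of lactate carriers, was lower in HE (log2 difference -0.88 as deposited and -0.03 after rescaling), and of 7 lactate and glycolysis genes, pfkfb3 (-1.99 as deposited and -1.26 after rescaling) and gapdhs (-0.90 and -0.04) were listed and lower.

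The comparison of morpholino-injected with non-injected DP-R1hi cells asked what differed in that gate after injection of the runx1 morpholino. MO cells held more mRNA than Wt cells for 4 of 5 listed amino acid carriers, for zinc carriers slc30a1a and slc39a1, and for slc14a2, slc35f6 and slc10a4. They held less for slc27a4 and for the lactate exporter slc16a3. Of 16 members, 9 were called higher and 2 lower in the fit without pairing, against a background of 41.4% of 676 listed genes, 26.3% higher and 15.1% lower. These libraries met the rule for pairing by replicate number given below. With that number as a block, 12 members were called, 9 higher and 3 lower. The block called 376 of all listed genes, 242 higher and 134 lower. The groups did not overlap for any of the 16, as for 93.2% of all listed genes. The members' median log2 difference was 1.35, against 1.02 over all listed genes. After rescaling, which shifted the groups by 0.80 on the log2 scale, 1 member was called higher (slc43a2b) and 4 lower, and all 16 kept their direction. The listed genes had been chosen for their change, and 62.3% of them were higher in MO. Rescaling therefore lowers the differences by construction and is no check of the normalisation. In fits without pairing the calls also leaned on single libraries: without Wt-DP-R1hi replicate 1, 2 or 3 the members called were 3, 6 and 6. The losses of calls given below are from those fits and were not checked with pairing. With the block and all libraries, no member's call changed but that of slc39a7. slc14a2, slc35f6 and slc43a2b were called in every fit that left out 1 library.

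**Figure D3:**
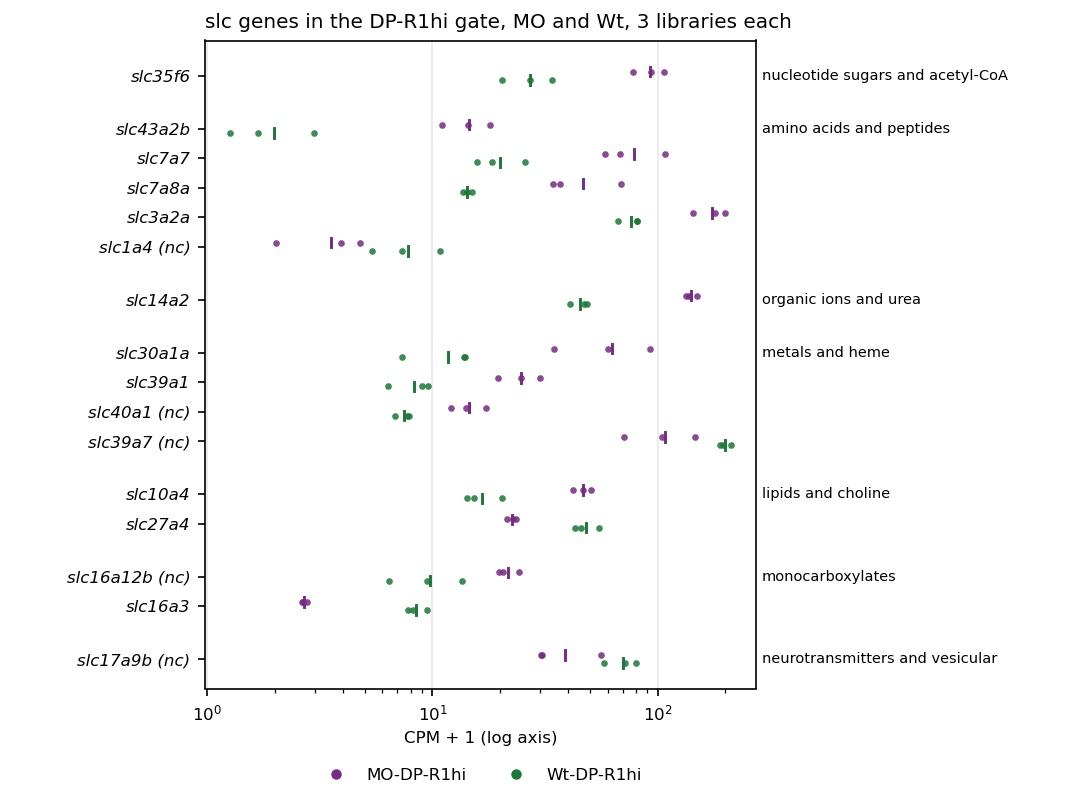
CPM + 1 on a log axis of the 16 solute carrier genes listed for MO against Wt in the DP-R1hi gate, with 1 point for each of 3 libraries of MO-DP-R1hi (purple) and Wt-DP-R1hi (green), a bar at each group mean, and (nc) for the 5 genes not called. MO libraries of slc43a2b lie at 9.98 to 17.1 CPM and Wt libraries at 0.267 to 1.99 CPM, and no gene overlaps between the groups.

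slc43a2b had the largest rise, at 13.4, 17.1 and 9.98 CPM in MO-DP-R1hi, against 0.267, 0.690 and 1.99 CPM in Wt-DP-R1hi (log2 difference 2.93 ± 0.41 SE, adjusted p = 0.00518). Its Wt values rest on 4, 11 and 35 reads. slc7a7 was at 67.4, 107 and 57.1 CPM in MO-DP-R1hi, against 17.3, 14.7 and 24.7 CPM in Wt-DP-R1hi, with MO replicate 2 highest (log2 difference 1.95 ± 0.30 SE, adjusted p = 0.00778). slc7a8a was at 33.4, 67.7 and 35.7 CPM in MO-DP-R1hi, against 12.7, 13.2 and 13.9 CPM in Wt-DP-R1hi, and again MO replicate 2 stood above the other MO libraries (log2 difference 1.63 ± 0.31 SE, adjusted p = 0.0226). The heavy chain slc3a2a was at 178, 198 and 142 CPM in MO-DP-R1hi, against 80.4, 65.5 and 80.03 CPM in Wt-DP-R1hi, higher in MO without overlap (log2 difference 1.18 ± 0.20 SE, adjusted p = 0.0113). Its copy slc3a2b was not listed for this comparison and has no value here. The call of slc7a7 was lost without Wt-DP-R1hi replicate 1, that of slc3a2a without Wt-DP-R1hi replicate 1 or 2, and that of slc7a8a without any 1 Wt library (highest adjusted p = 0.0609, 0.0711 and 0.126). slc1a4, a carrier of alanine, serine and cysteine, averaged 2.56 ± 1.39 CPM in MO-DP-R1hi and 6.83 ± 2.73 CPM in Wt-DP-R1hi and was not called (adjusted p = 0.397).

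Zinc exporter slc30a1a was at 33.5, 91.8 and 59.1 CPM in MO-DP-R1hi, against 12.99, 12.8 and 6.30 CPM in Wt-DP-R1hi. MO libraries were all higher but spread widely (log2 difference 2.36 ± 0.40 SE, adjusted p = 0.0122), and the call was lost without Wt-DP-R1hi replicate 1 (adjusted p = 0.0600). slc39a1 was at 18.6, 23.8 and 28.9 CPM in MO-DP-R1hi, against 8.53, 7.97 and 5.34 CPM in Wt-DP-R1hi (log2 difference 1.58 ± 0.31 SE, adjusted p = 0.0283). It was not called without MO replicate 2 or 3 or any 1 Wt library (highest adjusted p = 0.107). Ferroportin slc40a1 was at 11.1, 16.3 and 13.1 CPM in MO-DP-R1hi, against 6.73, 5.84 and 6.87 CPM in Wt-DP-R1hi. The groups did not overlap, but the gene was not called (log2 difference 0.94 ± 0.30 SE, adjusted p = 0.224). slc39a7, which releases zinc from the endoplasmic reticulum, averaged 106 ± 37.99 CPM in MO-DP-R1hi and 198 ± 11.6 CPM in Wt-DP-R1hi and was not called (adjusted p = 0.103). With the replicate number as a block it was called lower (adjusted p = 0.0398), which made 12 members called, 3 of them lower.

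slc14a2 was the member with the smallest adjusted p, at 149, 136 and 133 CPM in MO-DP-R1hi, against 39.8, 45.9 and 47.4 CPM in Wt-DP-R1hi. MO libraries lay close together (log2 difference 1.63 ± 0.18 SE, adjusted p = 0.00156). slc35f6 was at 92.8, 106 and 76.98 CPM in MO-DP-R1hi, against 33.1, 19.5 and 26.2 CPM in Wt-DP-R1hi, higher in MO (log2 difference 1.79 ± 0.25 SE, adjusted p = 0.00537). slc10a4, a relative of the bile acid carriers found on synaptic vesicles in mammals, was at 45.7, 49.8 and 41.3 CPM in MO-DP-R1hi, against 14.3, 19.5 and 13.2 CPM in Wt-DP-R1hi (log2 difference 1.5 ± 0.25 SE, adjusted p = 0.0120), a call lost without Wt-DP-R1hi replicate 1 or 3 (highest adjusted p = 0.0792). slc10a4 was not listed for HE against ARE.

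The 2 members called lower without the block were called only with all 6 libraries. slc27a4 was at 20.5, 21.7 and 22.5 CPM in MO-DP-R1hi, against 42.1, 53.7 and 44.8 CPM in Wt-DP-R1hi (log2 difference -1.08 ± 0.23 SE, adjusted p = 0.0371). slc16a3, the lactate exporter MCT4, was at 1.78, 1.67 and 1.65 CPM in MO-DP-R1hi, against 8.46, 6.78 and 7.21 CPM in Wt-DP-R1hi (log2 difference -1.65 ± 0.32 SE, adjusted p = 0.0255). MO libraries of slc16a3 held 22, 25 and 16 reads and Wt libraries 127, 108 and 127. Both genes kept their direction in all 6 fits that left out 1 library and passed in none of them (highest adjusted p = 0.229 for slc27a4 and 0.121 for slc16a3). Without MO replicate 2, slc39a7 and slc17a9b were called lower in their place. slc16a12b, a creatine carrier of the same family, averaged 20.6 ± 2.46 CPM in MO-DP-R1hi and 8.80 ± 3.59 CPM in Wt-DP-R1hi and was not called (adjusted p = 0.132). slc17a9b, which loads nucleotides into vesicles, averaged 37.9 ± 14.7 CPM in MO-DP-R1hi and 68.9 ± 11.3 CPM in Wt-DP-R1hi and was not called (adjusted p = 0.201).

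Markers of blood cells and of other tissues differed between the same libraries. The macrophage markers mpeg1.1, mfap4, csf1ra, irf8 and ccl34a.4 were higher in MO-DP-R1hi: mpeg1.1 averaged 122 ± 41.03 CPM in MO-DP-R1hi and 19.2 ± 4.56 CPM in Wt-DP-R1hi and csf1ra 16.4 ± 5.25 CPM in MO-DP-R1hi and 2.08 ± 0.888 CPM in Wt-DP-R1hi. mpx, the peroxidase of neutrophils, was lower (log2 difference -1.42), and coro1a was not called (adjusted p = 0.0597). The 7 listed of 9 macrophage and myeloid markers summed to 3346 to 4992 CPM in MO and 6033 to 8024 CPM in Wt, since mpx and coro1a made up most of the sum. The 6 listed of 10 primitive erythroid markers, all higher, summed to 100991 to 162755 CPM in MO and 35278 to 46133 CPM in Wt. The 6 listed of 12 epidermal markers summed to 288 to 2981 CPM in MO and 40.4 to 84.6 CPM in Wt, with 1 called higher. col1a2, a collagen gene of the neural crest and sclerotome list, averaged 28.2 ± 4.44 CPM in MO-DP-R1hi and 6.69 ± 2.66 CPM in Wt-DP-R1hi, and ctsla, of the pronephros, gut and liver list, averaged 213 ± 36.7 CPM in MO-DP-R1hi and 52.7 ± 24.9 CPM in Wt-DP-R1hi, both called higher. Of 11 endothelial markers, 2 were listed. fli1a was called lower, at 332 ± 26.2 CPM in MO-DP-R1hi and 550.1 ± 14.95 CPM in Wt-DP-R1hi. erg went the other way, at 9.31, 34.5 and 21.8 CPM in MO-DP-R1hi and 6.40, 6.40 and 7.10 CPM in Wt-DP-R1hi. It did not overlap and was not called (log2 difference 1.41, adjusted p = 0.176). Of 6 haemogenic markers, 2 were listed. gfi1ab was called lower (log2 difference -2.88) and tal1 higher (0.93 as deposited and 0.13 after rescaling). None of them was at 0 in all libraries. The part of these cells' RNA in the changes of the carriers was not tested.

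Of 16 iron and heme genes, 6 were listed in DP-R1hi. alas2, fech, fth1a, hamp and hmox1a were higher in MO, with hmox1a at 233 ± 19.1 CPM in MO-DP-R1hi and 31.98 ± 16.8 CPM in Wt-DP-R1hi, and tfr1b was lower at 46.6 ± 6.78 CPM in MO-DP-R1hi and 89.6 ± 3.69 CPM in Wt-DP-R1hi. After rescaling the log2 differences of alas2, fech and fth1a were 0.20, 0.27 and 0.34, against 1.003, 1.06 and 1.14 as deposited. Of the amino acid response lists, atf5a, a stress-induced transcription factor, was higher (log2 difference 1.88) and phgdh was not called (-0.78). sesn3 was higher (1.82) and sesn1 not called (0.92).

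Of the 43 members, 10 were listed both for HE against ARE and for MO against Wt in DP-R1hi. Over all genes, 397 were listed for both. How many of the 397 went opposite ways was not counted, so opposite signs are not read as particular to the carriers. The comparisons share the 3 Wt-DP-R1hi libraries, as the group under test in the first and the reference in the second, so a high or low value there moves both differences in opposite directions. The tables were normalised separately, and the values of the shared libraries differ between them by constant factors of 0.912 to 0.929. slc43a2b had a log2 difference of -3.90 in HE minus ARE and 2.93 in MO minus Wt. The same pair of differences was -2.79 and 1.95 for slc7a7, -2.82 and 1.63 for slc7a8a, and -1.86 and 1.18 for slc3a2a. For the metal carriers it was -3.66 and 0.94 (slc40a1, the second not called), -2.73 and 2.36 (slc30a1a), and -2.18 and 1.58 (slc39a1). slc35f6 had -2.70 and 1.79.

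The other two had HE above ARE. slc27a4 was 0.97 in HE minus ARE and -1.08 in MO minus Wt, with 21.6 CPM in MO-DP-R1hi in its table and 21.5 CPM in ARE in the other. slc14a2 was 1.02 and 1.63, so MO exceeded Wt-DP-R1hi, which itself exceeded ARE: the means were 139 CPM in MO-DP-R1hi and 44.4 CPM in Wt-DP-R1hi in one table, and 40.9 CPM in HE and 20.8 CPM in ARE in the other. By contrast, slc40a1 averaged 13.5 CPM in MO-DP-R1hi, against 88.7 CPM in ARE in the other table. MO-DP-R1hi and ARE were not tested against each other.

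**Figure D4:**
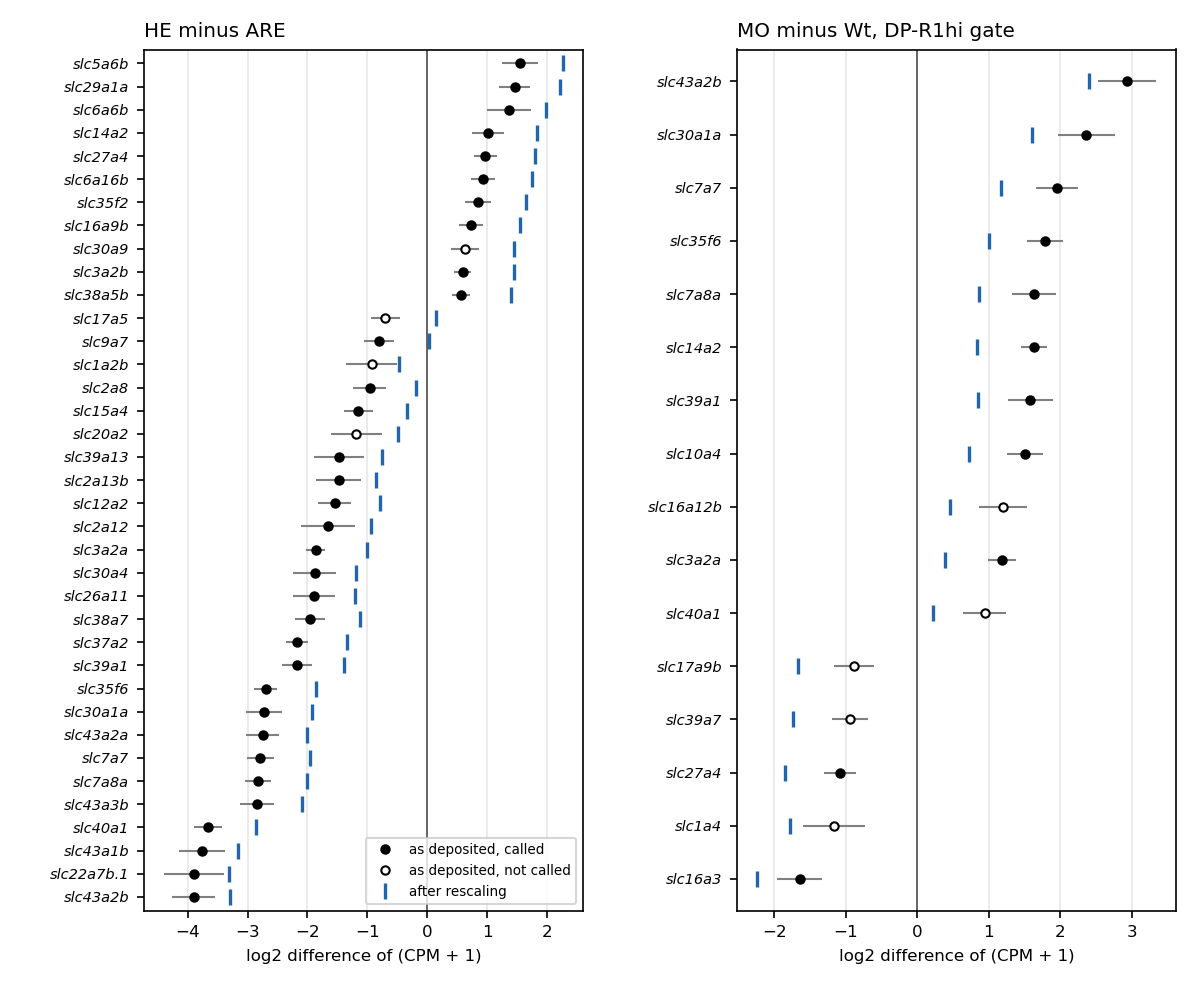
Log2 differences of (CPM + 1) with SE bars for the 37 members in HE minus ARE and the 16 in MO minus Wt of the DP-R1hi gate, as deposited (filled where called, open where not) and after rescaling by median ratios (blue ticks). The deposited differences run from -3.90 to 1.54 on the left and from -1.65 to 2.93 on the right, rescaling moves them by up to about the group shifts of 0.86 and 0.80, and slc9a7 and slc17a5 cross 0.

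The paper compared DN cells to correct for off-target effects of the morpholino. In DN cells, MO against Wt listed 2 members, and neither was called in the fit without pairing. The background was 22.7% of 176 listed genes called, 19.3% higher and 3.41% lower. slc5a6b was at 3.90, 4.65 and 4.25 CPM in MO-DN, against 0.385, 1.46 and 1.18 CPM in Wt-DN. MO was higher without overlap, as for 98.9% of the listed genes (log2 difference 1.43 ± 0.28 SE, adjusted p = 0.0966). slc16a9b was at 68.5, 56.7 and 53.9 CPM in MO-DN, against 24.6, 37.04 and 18.9 CPM in Wt-DN, also higher in MO without overlap (log2 difference 1.17 ± 0.27 SE, adjusted p = 0.158). Both had an unadjusted p under 0.05 in limma. With the replicate number as a block, limma called both higher (adjusted p = 0.0026 for slc5a6b and 0.0306 for slc16a9b). That block called 101 of the 176 listed genes, and these libraries fell short of the rule for pairing given below. The 2 members were also listed for HE against ARE, where both were higher in HE. No library is shared between those 2 comparisons, and neither gene was listed for MO against Wt in DP-R1hi. Of the response genes, sesn3 averaged 78.6 ± 4.30 CPM in MO-DN and 10.4 ± 2.30 CPM in Wt-DN and was called higher (adjusted p = 6.8e-04), as was atf5a at 11.6 ± 4.64 CPM in MO-DN and 2.20 ± 0.714 CPM in Wt-DN (adjusted p = 0.0481). The 6 listed of 10 erythroid markers summed to 351 to 650 CPM in MO and 1353 to 1768 CPM in Wt, with 3 called lower.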

How the data were processed

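RNA from sorted cells was read with low-input SMARTer libraries. Per the methods and labels, the authors used Trimmomatic 0.32 for trimming, STAR for alignment to a genome named Zv10, featureCounts for counting and edgeR for testing. The 3 deposited tables hold the authors' CPM values (per effective library size) for genes called at a false discovery rate under 0.05. The authors' fold change, mean log2 CPM and likelihood ratio were not used. The deposited p-value and false discovery rate columns served only to recover how many genes were tested: 10916 for HE against ARE and 11479 for both MO tables. The values are whole multiples of 1 step per library, taken as 1 read. In every library 100% of the values above 0 were such multiples. No count test was run.

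log2(CPM + 1) was fitted within each table with limma 3.58.1 in R 4.3.3 (eBayes with a trend, two-sided). Adjusted p-values are Benjamini-Hochberg values over all genes tested, in which unlisted genes enter as not passing. A pass on genes already selected on the same libraries is no independent evidence. Means are ± SD over 3 libraries. All 43 symbols matched RefSeq (42) or Ensembl (28) tables. No sequence was used here.

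Members, substrate classes and gene lists were chosen with earlier results of these data known. Values per library are given for the 2 largest called changes per class and direction in HE against ARE, every called member in an MO table, every member in 2 tables, slc3a2 and family 7 genes, and pairs of copies. Numbers were taken to pair libraries where the deviations of every same-numbered pair correlated at r over 0.1. MO against Wt in DP-R1hi met this (0.128, 0.313 and 0.118 across 676 genes). HE against ARE (0.0942, 0.183 and 0.267) and DN (0.223, 0.181 and -0.0555) did not. Calls, SE and adjusted p are from the fit without pairing in every comparison, except where a block is named. Fits that left out a library had no pairing either, so the calls lost there were not checked with it. Alternatives were pseudocounts of 0.25 and 5, a mean CPM of at least 5, adjustment over listed genes alone, no trend, rescaling by median ratios, a replicate block and leaving out each library. The fit was also run on simulated data with Gaussian noise, no selection of genes and adjustment over the listed genes alone. That setting differs from the one used here, so the run cannot show how reliable these calls are.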

Additional observations from a re-analysis of the deposited data

How the results depend on the processing

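Directions of all members held in every fit that left out 1 library. Rescaling by median ratios turned the log2 difference of slc17a5 to 0.14 and that of slc9a7 to 0.032. For HE against ARE the members' median log2 difference was -1.70 with a pseudocount of 0.25, -0.97 with 5 and -0.80 after rescaling, and -1.67 to -1.30 over the fits without 1 library, which called 23 to 32 members, 5 to 10 of them higher. For MO against Wt in DP-R1hi the median was 1.18 with a pseudocount of 5, 1.54 with a mean CPM of at least 5 and 0.60 after rescaling. Rescaling called 5 members there, 1 higher and 4 lower. In every comparison it removes the median change of genes listed for their change, so it is no check of the normalisation. Members called lower were 1 with the CPM filter, 1 without a trend and 5 with adjustment over the listed genes alone, and all listed genes called were 158 without a trend and 661 with that adjustment. Without Wt-DP-R1hi replicate 1, 2 or 3, 101, 94 and 176 listed genes were called. Over all fits without 1 library, 94 to 230 listed genes were called and 3 to 10 members, 3 to 9 of them higher and 0 to 2 lower. In DN, the median of the 2 members was 1.58 with a pseudocount of 0.25, 0.84 with 5, 1.17 with the CPM filter and 0.57 after rescaling, and 1.16 to 1.51 without 1 library, when 8 to 33 listed genes were called (8 without Wt-DN replicate 1 and 25 without Wt-DN replicate 3). Adjustment over the listed genes alone called 176 genes and both members (2, both higher). The cause of these shifts was not tested, except that adjustment over fewer genes is less strict by construction.

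With the replicate number as a block, HE against ARE called 36 members (11 higher, 25 lower), adding slc17a5 (adjusted p = 0.00615), slc20a2 (0.0121) and slc30a9 (0.0441), although those libraries fell short of the rule for pairing. Each HE and ARE library did correlate best with its own number. In DN the block called 101 listed genes and 2 members, both higher (slc5a6b at adjusted p = 0.0026 and slc16a9b at 0.0306), and libraries there did not all correlate best with their own number. In MO against Wt in DP-R1hi, the block changed no call but that of slc39a7.

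Only called genes are listed, so a member that did not differ has no value. slc43a1b, slc43a2b and slc22a7b.1 in HE rest on few reads.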
